A study of Homo sapiens with 7 samples.

Results

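The ligand BMP4 and 9 genes of its signalling pathway were followed in ASH1L knockout (KO) clones and wild-type (WT) cells of BHT-101, a human anaplastic thyroid cancer line. The set holds the receptors BMPR1A and BMPR2, the signal transducers SMAD1 and SMAD5, the inhibitory SMAD6 and SMAD7, and the target genes ID1, ID2 and ID3. BMP4 was chosen because it was higher in every clone than in WT, so its difference between KO and WT is described without a test; the others were chosen by their place in the pathway. All 10 genes were among the 13142 in the deposited table, and all 10 were among the 11154 kept for testing, which had a log2 RPKM (log2 of reads per kilobase of gene, scaled to sequencing depth) above 0 in at least 3 libraries.

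The study sequenced total RNA from 4 KO clones with 1 library each and from 3 biological replicates of WT cells, with no other treatment given. ASH1L encodes a histone methyltransferase of the Trithorax group. Per the labels, KO1 has a premature stop codon after residue 413 and KO2 after residue 610, KO3 has one after residue 2129, each on both alleles, and KO4 has stops after residues 2169 and 2174. A KO line is 1 clone, no clone with intact ASH1L was analysed, and differences of a clone from WT that do not come from ASH1L cannot be told apart from those that do. The table gives no read totals, so the depth behind each value is unknown, and error is judged here by how far WT samples, and clones, spread.

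The libraries differed in more than these genes. Across tested genes, KO1 had Pearson correlations of 0.821 to 0.830 with the WT samples, the other clones had 0.913 to 0.940, and the WT samples had 0.988 to 0.995 with each other. Among the clones, KO1 was at 0.926 with KO4, 0.881 with KO3 and 0.788 with KO2. ASH1L itself was at a log2 RPKM of 2.69, 2.54, 2.42 and 3.74 in KO1, KO2, KO3 and KO4, against 3.34, 3.30 and 3.22 in WT1, WT2 and WT3. KO1, KO2 and KO3 were thus below all WT samples and KO4 above them. A premature stop codon may or may not change the RNA level, so these values do not check the labels. All 5 epithelial markers examined were in the table, with a summed level of 233 to 576 RPKM in KO and 487 to 583 RPKM in WT. Of 7 thyroid follicular markers only PAX8 was in the table, at a log2 RPKM of -5.02 to -1.20 in KO and -2.97 to -2.23 in WT. None of 4 leukocyte markers was in it. Of 7 fibroblast and endothelial markers 3 were, with a sum of 20.4 to 65.0 RPKM in KO and 41.4 to 46.0 RPKM in WT.

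Bone morphogenetic proteins are secreted ligands of the TGF-beta superfamily. They bring together type I and type II serine/threonine kinase receptors, of which BMPR1A is a type I and BMPR2 a type II receptor, and the type I receptor then phosphorylates SMAD1, SMAD5 and SMAD9, which enter the nucleus with SMAD4. There they switch on target genes, among them ID1, ID2 and ID3, which encode helix-loop-helix proteins without a DNA-binding region that hold E proteins away from DNA, and SMAD6 and SMAD7, which feed back on the pathway. BMP4 has known roles in the early development of many organs and in epithelial to mesenchymal transitions.

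BMP4 had the largest mean difference between KO and WT of the 10 members. It alone was chosen for its rise, so this rank is no result. Its log2 RPKM was 3.44, 2.90, 2.36 and 3.34 in KO1, KO2, KO3 and KO4, against 1.20, 1.28 and 0.85 in WT1, WT2 and WT3. Every clone lay above every WT sample, as the choice of the gene required, and the lowest clone, KO3, was 1.08 log2 units above the highest WT sample. The clones averaged 3.01 ± 0.49 (SD, n = 4) and the WT samples 1.11 ± 0.23 (SD, n = 3), a log2 difference of 1.90 ± 0.27 (SE). In order of level, KO1 and KO4 were 0.10 apart, which is less than the WT SD of 0.23, while KO4 exceeded KO2 by 0.43 and KO2 exceeded KO3 by 0.54. Across all tested genes 0.412% passed in this comparison (limma, adjusted p under 0.05); the rule used this contrast, so nothing is read from that for BMP4.

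BMP4 lies on the minus strand of chromosome 14 (ENSG00000125378, 53949736 to 53958761, hg38) and no other annotated gene overlaps it. The 61 tested genes within 5 Mb of it had a median log2 difference from WT of 0.13, 0.03, 0.07 and 0.01 in KO1 to KO4, so BMP4 stood 2.19, 1.76, 1.18 and 2.21 log2 units above its neighbours. RefSeq lists 3 starts for BMP4. The 250 bases upstream of the most distal start (chr14:53955051-53955300, minus strand, GRCh38.p14) are shown because BMP4 is the member chosen for its rise. Capitals mark the sequence GGCGCC, a GC-rich element through which BMP SMADs are known to bind DNA. They also mark GTCT or its reverse complement AGAC, the core that SMADs recognise.
BMP4: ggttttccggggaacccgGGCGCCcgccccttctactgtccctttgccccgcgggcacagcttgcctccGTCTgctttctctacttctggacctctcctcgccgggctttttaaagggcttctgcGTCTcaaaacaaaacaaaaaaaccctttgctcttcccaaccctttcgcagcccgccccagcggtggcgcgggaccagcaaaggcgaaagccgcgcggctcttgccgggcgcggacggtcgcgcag
This window held 1 GGCGCC and 2 GTCT cores. The windows at the other starts held no GGCGCC and 2 or 0 GTCT cores. Of 35116 human promoter windows of this length, 16.4% held GGCGCC and 77.5% held GTCT on either strand. The letters are a description and do not show binding.

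**Figure D1:**
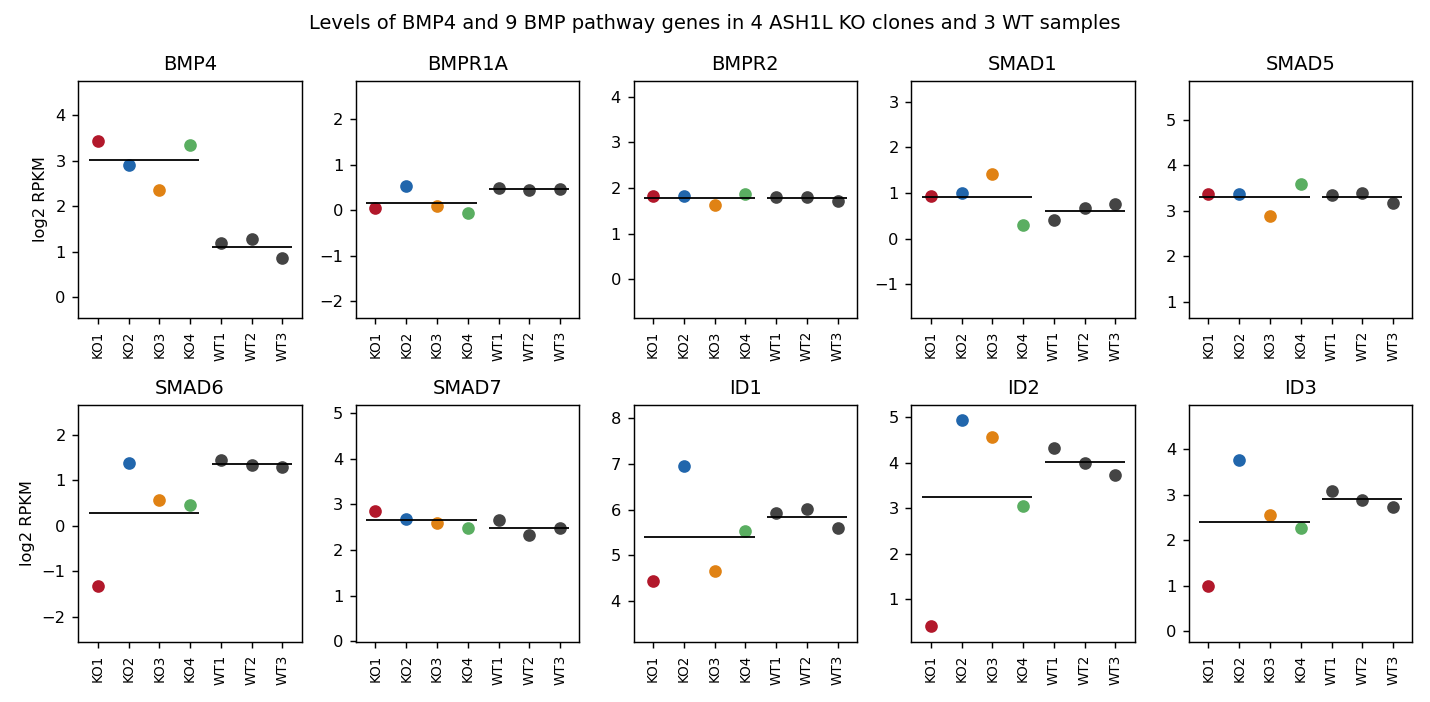
Log2 RPKM of BMP4 and 9 pathway genes in each library, with KO clones in colour on the left and WT samples in grey on the right; lines are group means, and all panels span the same range. BMP4, which was chosen for this, is above WT in every clone, at 2.36 to 3.44 against 0.85 to 1.28. The other genes overlap between the groups.

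BMP2, the other BMP ligand of these cells that could be tested, was lower in every clone. BMP2 and BMP4 are close relatives that use the same receptors. The log2 RPKM of BMP2 was 0.35, 3.72, 2.29 and 2.77 in KO1 to KO4, against 4.57, 4.37 and 4.15 in WT1 to WT3. All clones lay below all WT samples, with KO1 far below the other clones. As a group comparison the difference of -2.08 ± 0.69 (SE) did not pass (limma, adjusted p = 0.219), while each clone set singly against WT did, with log2 differences of -4.02, -0.64, -2.07 and -1.59 (limma, adjusted p = 8.74e-06, 0.0295, 0.000485 and 0.00148). Of all tested genes, 2.3% passed as lower in all 4 clones, and a listed gene that passed one way in all 4 was named for it. Such single-clone tests assume that 1 clone would vary as the 3 WT samples do. The median SD over tested genes was 0.30 log2 units among clones and 0.10 among WT samples, so these p-values may be too small.

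Set side by side per kilobase, BMP4 exceeded BMP2 in KO1, KO3 and KO4, whereas BMP2 exceeded BMP4 in KO2 and in all WT samples. BMP4 was at 10.8, 7.49, 5.14 and 10.1 RPKM in KO1, KO2, KO3 and KO4, against 2.30, 2.43 and 1.81 RPKM in WT1, WT2 and WT3. BMP2 was at 1.27, 13.2, 4.90 and 6.82 RPKM in the clones, against 23.7, 20.7 and 17.7 RPKM in WT. BMP4 therefore made up 89.5%, 36.2%, 51.2% and 59.7% of the sum of both in KO1 to KO4, and 8.83%, 10.5% and 9.26% in WT1 to WT3. The sum itself was 12.1, 20.7, 10.0 and 16.9 RPKM in the clones and 26.0, 23.2 and 19.5 RPKM in WT, so KO2 reached the WT range and KO1, KO3 and KO4 were below it. The share includes BMP4, which was chosen for its rise, and is given without a test. Of the 13 other ligands listed, BMP8B was the only further one in the table, at a log2 RPKM of -1.22 to 0.46 in KO and -1.29 to -1.14 in WT, and it was not tested.

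**Figure D2:**
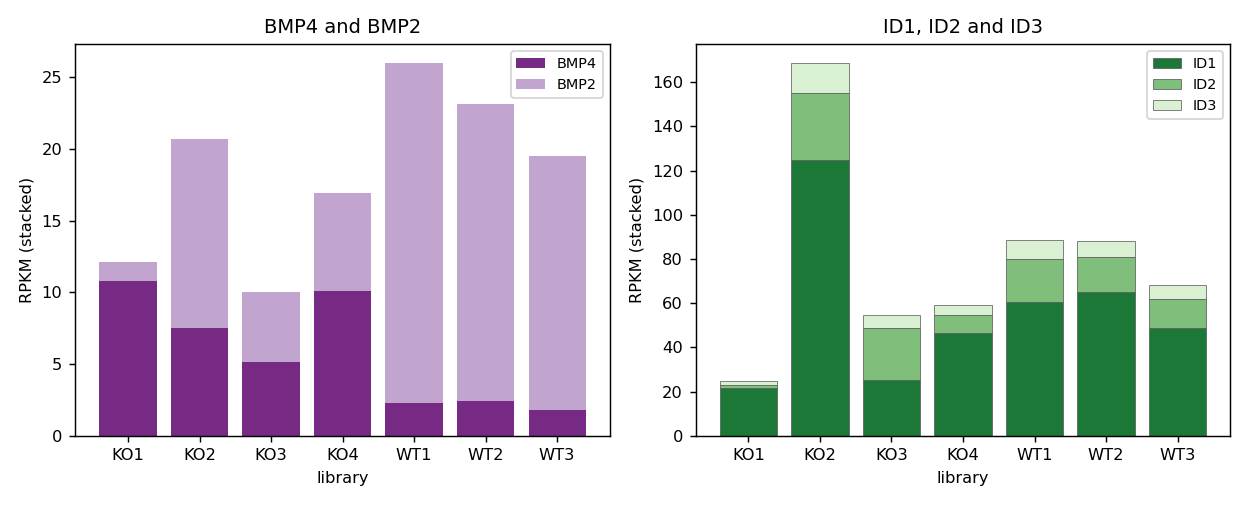
Stacked RPKM of BMP4 and BMP2 (left) and of ID1, ID2 and ID3 (right) in each library, 1 bar per library, KO clones left of WT samples. BMP4 forms 36.2% to 89.5% of the ligand bar in the clones and 8.83% to 10.5% in WT, and the ID bar is tallest in KO2 at 169 RPKM and shortest in KO1 at 25.0 RPKM.

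Neither BMPR2 nor BMPR1A passed as a group or in any single clone. BMPR2, the type II receptor (ENSG00000204217, chr2:202376936-202567751, plus strand), had a log2 RPKM of 1.82, 1.82, 1.63 and 1.86 in KO1 to KO4 and 1.79, 1.81 and 1.72 in WT1 to WT3. The groups overlapped, and the difference of 0.01 ± 0.12 (SE) did not pass (limma, adjusted p = 0.982). Its SD among clones, 0.10, was smaller than that of all but 5.51% of tested genes. BMPR1A, the type I receptor (ENSG00000107779, chr10:86756601-86932838, plus strand), was at 0.05, 0.54, 0.09 and -0.07 in KO1 to KO4 and at 0.48, 0.45 and 0.46 in WT1 to WT3. KO2 was just above all WT samples and the other clones below them, and the difference of -0.31 ± 0.23 (SE) did not pass (limma, adjusted p = 0.538). For KO3 the genes around BMPR1A were at -0.36, close to the -0.37 of BMPR1A itself, whereas its differences from the neighbours in KO1 and KO4 were -0.41 and -0.43.

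Of 10 further receptors and co-receptors listed, 8 were in the table and 4 were tested, with a median log2 fold change of -0.14 against -0.02 over all tested genes; none passed and none had an unadjusted p under 0.05 (limma). BMPR1B, another type I receptor, had the smallest p. Its log2 RPKM was 1.05, -0.85, 1.58 and -0.47 in KO1 to KO4 and 1.32, 1.39 and 1.27 in WT1 to WT3. KO2 and KO4 were at log2 differences of -2.18 and -1.79 from WT, and both passed singly (limma, adjusted p = 0.000450 and 0.000625), while KO1 and KO3 did not. ACVR1, a type I receptor, was at -0.14 ± 0.14 (SE, adjusted p = 0.658) and ENG, the co-receptor endoglin, at -0.14 ± 0.25 (SE, adjusted p = 0.821), both by limma.

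Among the receptor SMADs, SMAD5 (ENSG00000113658, chr5:136132845-136188747, plus strand) was the more abundant. It was at 10.4, 10.4, 7.46 and 12.1 RPKM in KO1 to KO4 and 10.2, 10.6 and 9.07 RPKM in WT1 to WT3, and made up 73.7% to 90.8% of the sum of SMAD1 and SMAD5 in KO and 84.3% to 88.6% in WT. On the log2 scale SMAD5 differed by 0.00 ± 0.17 (SE) between the groups (limma, adjusted p = 0.997). In KO3 alone it was lower, by -0.41 (single-clone limma, adjusted p = 0.0432). The neighbours of SMAD5 in KO3 were at -0.35, and with the median of the neighbours subtracted SMAD5 was at -0.07 there (adjusted p = 0.687). That call was also lost with quantile normalization, median centring, without a variance trend, without WT1 and without WT2.

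SMAD1 (ENSG00000170365, chr4:145481194-145558079, plus strand) moved with the genes around it in KO1, KO2 and KO3. On the log2 RPKM scale it was at 0.93, 1.00, 1.41 and 0.30 in KO1 to KO4 and 0.40, 0.67 and 0.75 in WT1 to WT3. KO1, KO2 and KO3 were above all WT samples and KO4 below them, and the group difference of 0.30 ± 0.28 (SE) did not pass (limma, adjusted p = 0.617). In KO3 SMAD1 passed alone, at 0.80 (single-clone limma, adjusted p = 0.0202). The 14 tested neighbours were at 0.27, 0.39, 0.57 and 0.16 in KO1 to KO4, beside 0.32, 0.39, 0.80 and -0.30 for SMAD1, and with the neighbours subtracted the KO3 difference was 0.23 (adjusted p = 0.406) and the group difference -0.05. Without WT2 the KO3 call was lost too (adjusted p = 0.0703). SMAD1-AS1, SMAD1-AS2 and SMAD5-AS1 lie on the opposite strands of SMAD1 and SMAD5; strand is not stated for the counting, so their reads cannot be told apart from those of the SMADs.

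**Figure D3:**
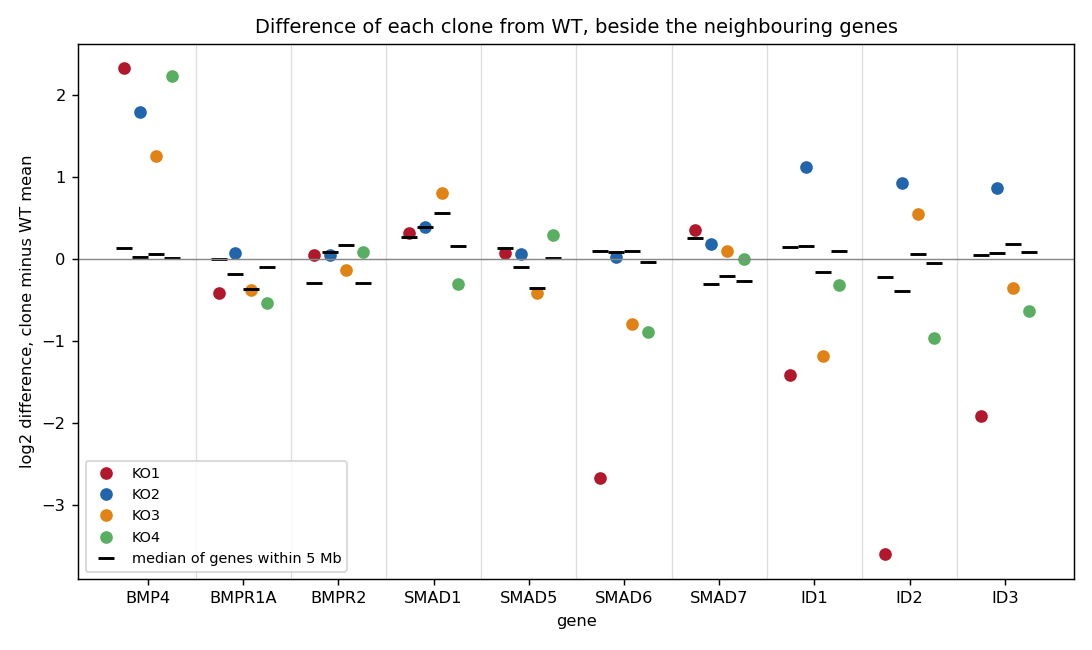
Log2 difference of each KO clone from the WT mean for each gene (coloured points, 1 per clone), beside the median difference of the tested genes within 5 Mb (black bars). SMAD1 lies near its neighbours in KO1 and KO2, while BMP4, SMAD6 and the ID genes lie far from theirs in several clones.

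The inhibitory SMADs behaved differently from each other. SMAD6, which mainly restrains BMP receptors (ENSG00000137834, chr15:66702228-66782848, plus strand), had a log2 RPKM of -1.32, 1.38, 0.57 and 0.47 in KO1 to KO4 and 1.44, 1.34 and 1.28 in WT1 to WT3. KO2 lay among the WT samples and the other clones below them, KO1 by the most. The group difference was -1.08 ± 0.57 (SE) and did not pass (limma, adjusted p = 0.397). Taken singly, SMAD6 fell in KO1 to 0.157 times the WT mean, in KO3 to 0.579 times and in KO4 to 0.541 times (single-clone limma, adjusted p = 3.89e-05, 0.0114 and 0.00960), while KO2 was at 1.01 times. Without WT2 the KO3 and KO4 calls were lost (adjusted p = 0.0637 and 0.0583). The 53 neighbours of SMAD6 were between -0.03 and 0.10 in the clones.

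SMAD7, which restrains both the BMP and the TGF-beta branch (ENSG00000101665, chr18:48919853-48952052, minus strand), was at 2.85, 2.68, 2.60 and 2.49 in KO1 to KO4 and 2.66, 2.33 and 2.49 in WT1 to WT3. The groups overlapped, the difference of 0.16 ± 0.14 (SE) did not pass (limma, adjusted p = 0.594), and SMAD7 was the only member whose SD was smaller among clones (0.15) than among WT samples (0.17). It did not pass in any single clone.

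The ID genes, the transcripts most often used to read out BMP signalling, were not higher in every clone as BMP4 was. ID1, ID2 and ID3 were above all WT samples in KO2, as was ID2 in KO3. Their other clone values were below all WT samples. ID1 (ENSG00000125968, chr20:31605283-31606515, plus strand) was at a log2 RPKM of 4.44, 6.96, 4.66 and 5.53 in KO1 to KO4, against 5.91, 6.02 and 5.60 in WT1 to WT3. KO2 was above all WT samples and the other clones below them. The mean was 5.40 ± 1.15 in the clones (SD, n = 4) and 5.85 ± 0.22 in WT (SD, n = 3), and their difference, -0.45 ± 0.56 (SE), missed the threshold (limma, adjusted p = 0.728). Singly, ID1 fell to 0.377 times WT in KO1 and 0.440 times in KO3, rose to 2.17 times in KO2, and was at 0.806 times in KO4 without passing (single-clone limma, adjusted p = 0.000981, 0.00352, 0.00469 and 0.210).

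ID2 (ENSG00000115738, chr2:8678845-8684453, plus strand) had the widest range. Levels in log2 RPKM were 0.41, 4.93, 4.56 and 3.04 in KO1 to KO4, against 4.31, 3.99 and 3.72 in WT1 to WT3. KO2 and KO3 were above all WT samples and KO1 and KO4 below them, and the highest clone was 23.1 times the lowest. The group difference of -0.77 ± 1.00 (SE) did not pass (limma, adjusted p = 0.733) and was 0.17 ± 0.48 without KO1. ID2 fell to 0.0825 times WT in KO1 and 0.512 times in KO4 and rose to 1.90 times in KO2 (single-clone limma, adjusted p = 4.25e-05, 0.0214 and 0.0197); the calls in KO2 and KO4 were lost without WT2 (adjusted p = 0.0629 and 0.0665). KO3 was at 1.47 times WT and did not pass (adjusted p = 0.0894). ID2-AS1 overlaps ID2 on the opposite strand and cannot be told apart from it.

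ID3 (ENSG00000117318, chr1:23557918-23559794, minus strand) ranked the clones as ID2 did, at a lower level than ID2 in every library except KO1. It had log2 RPKM values of 0.98, 3.76, 2.55 and 2.26 in KO1 to KO4, against 3.08, 2.88 and 2.73 in WT1 to WT3. KO2 was again above all WT samples and the other clones below them. The group difference of -0.51 ± 0.56 (SE) did not pass (limma, adjusted p = 0.681). Singly, ID3 fell to 0.266 times WT in KO1 and 0.645 times in KO4 and rose to 1.82 times in KO2 (single-clone limma, adjusted p = 0.000185, 0.0297 and 0.00901); the KO4 call was lost without WT2 (adjusted p = 0.103). In these bulk samples, fewer cells expressing a gene and less RNA per cell cannot be told apart.

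Added up, ID1, ID2 and ID3 stood at 25.0, 169, 54.7 and 59.4 RPKM in KO1 to KO4 and at 88.6, 88.1 and 68.4 RPKM in WT1 to WT3. KO2 was far above and KO1 far below WT, and KO3 and KO4 were below the lowest WT sample. The makeup shifted as well: ID1 gave 86.8%, 73.9%, 46.2% and 78.1% of the sum in KO1 to KO4 and 68.1%, 73.6% and 71.0% in WT1 to WT3, and ID2 gave 5.31%, 18.1%, 43.1% and 13.9% in the clones and 22.4%, 18.0% and 19.3% in WT. KO3, with the smallest share of ID1, thus held nearly as much ID2 as ID1. The share of ID3 stayed between 7.93% and 10.7% in KO and 8.38% and 9.68% in WT.

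SMAD6, ID1, ID2 and ID3 shared 1 feature across the clones: each was highest in KO2 and lowest in KO1. Between them, KO3 was above KO4 for SMAD6, ID2 and ID3, and KO4 above KO3 for ID1. Of the 9 members other than BMP4, these 4 did so, against 14.8% of all tested genes. The pattern was read from these same values, so the count is a description and no result about the set. The 4 genes lie on chromosomes 15, 20, 2 and 1, and the median difference of their neighbours ran only from -0.39 to 0.18. Over the 7 libraries the Pearson correlation was 0.936 between ID2 and ID3, 0.931 between SMAD6 and ID3, and 0.907 between SMAD6 and ID2. It was 0.649 to 0.867 between ID1 and the others. The 4 genes were grouped for sharing their highest and lowest clone, and that choice by itself raises these correlations. The libraries also share the depth and any clonal state of each clone, so these values are a description. BMP4 was at -0.25, -0.48, -0.45 and -0.69 with ID1, ID2, ID3 and SMAD6. Of the 5 epithelial markers, KRT8, KRT18, EPCAM and CDH1 were also lowest in KO1 and highest in KO2, and KRT19 was lowest in KO3 and highest in KO2. Against WT they differed: the epithelial cadherin CDH1 was at a log2 RPKM of -5.86 in KO1 and 1.96 in KO2, against 0.47 to 0.78 in WT, while the keratin KRT18 was below WT in every clone, at 6.70 to 7.37 against 7.61 to 7.78 in WT. EPCAM was at 1.71 to 3.88 in KO and 2.85 to 3.04 in WT, KRT8 at 5.64 to 7.42 in KO and 7.07 to 7.31 in WT, and KRT19 at 5.83 to 7.79 in KO and 7.21 to 7.61 in WT. The part of these markers in the differences was not tested.

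The upstream sequences of these 4 genes are shown because the genes shared their highest and lowest clone. Each is the 250 bases before the RefSeq start (GRCh38.p14), with GGCGCC and GTCT or AGAC in capitals as above: SMAD6 at chr15:66701986-66702235 (plus strand), ID1 at chr20:31605039-31605288 (plus), ID2 at chr2:8681806-8682055 (plus) and ID3 at chr1:23559502-23559751 (minus).
SMAD6: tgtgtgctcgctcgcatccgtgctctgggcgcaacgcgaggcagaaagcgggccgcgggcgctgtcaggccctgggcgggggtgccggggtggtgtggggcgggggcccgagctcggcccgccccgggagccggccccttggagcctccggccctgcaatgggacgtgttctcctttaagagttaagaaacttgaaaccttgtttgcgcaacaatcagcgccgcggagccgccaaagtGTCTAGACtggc
ID1: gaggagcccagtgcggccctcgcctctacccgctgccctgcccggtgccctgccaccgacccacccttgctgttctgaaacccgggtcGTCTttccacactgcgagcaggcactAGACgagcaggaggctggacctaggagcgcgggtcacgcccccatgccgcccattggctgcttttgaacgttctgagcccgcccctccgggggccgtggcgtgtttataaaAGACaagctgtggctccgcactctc
ID2: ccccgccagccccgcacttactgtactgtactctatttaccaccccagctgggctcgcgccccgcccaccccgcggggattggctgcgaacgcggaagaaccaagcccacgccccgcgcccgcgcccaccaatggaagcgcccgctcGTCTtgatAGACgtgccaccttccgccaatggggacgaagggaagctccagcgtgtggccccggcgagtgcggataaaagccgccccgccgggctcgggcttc
ID3: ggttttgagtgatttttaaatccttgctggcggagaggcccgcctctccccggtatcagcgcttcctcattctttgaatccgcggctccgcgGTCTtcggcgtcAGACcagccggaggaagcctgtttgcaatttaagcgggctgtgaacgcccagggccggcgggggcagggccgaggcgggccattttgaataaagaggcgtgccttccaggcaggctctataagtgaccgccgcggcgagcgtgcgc
None of these windows held GGCGCC, and each held 2 or 3 GTCT cores, a motif present in 77.5% of promoter windows. In SMAD6 the 2 cores were joined into GTCTAGAC, a palindrome of 2 SMAD cores, whose first base lay 12 bases before the start. That motif was searched for after the window had been read, and 64 of 35116 windows held it (0.182%). The E-box CANNTG, the site bound by E proteins, occurred once in the ID2 window and in none of the other three, and in 61.8% of all windows. No match says only that the letters are not in this window.

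Over the whole comparison of KO and WT, 0 of the 9 members other than BMP4 passed, beside 0.412% of all tested genes (0.17% higher, 0.242% lower). Of the 9, 0 had an unadjusted p under 0.05, against 15.7% of all tested genes, and 0 passed without a variance trend (limma in both settings). In 0 of the 9 did all clones lie on one side of all WT samples, against 19% of tested genes (8.88% higher, 10.1% lower). In 7 of the 9 at least 1 clone was above and another below all WT samples, against 51.2% of tested genes. Single clones gave 4 lower members in KO1, 3 higher in KO2, 1 higher and 3 lower in KO3, and 3 lower in KO4 (limma). Of all tested genes, 44.1% passed in KO1 (24.9% lower), 33.5% in KO2 (15.5% higher), 34.1% in KO3 (14.2% higher, 19.9% lower) and 24.8% in KO4 (14.4% lower), so counts of 4, 3, 4 and 3 of 9 are near the background and are no result about the members as a set. The 4 comparisons share the WT samples. The group differences of the genes with KO1 and KO2 at the extremes depended on those clones. Without KO1, the clone least like WT, the KO minus WT difference was 1.76 for BMP4, -0.55 for SMAD6, -0.13 for ID1, 0.17 for ID2 and -0.041 for ID3. Without KO2 it was 1.93 for BMP4, -1.45 for SMAD6, -0.97 for ID1, -1.34 for ID2 and -0.97 for ID3. None of the 9 other members passed in either setting (limma). The spread among clones was above that of 94% of tested genes for SMAD6, 94.1% for ID1, 97.8% for ID2 and 94.1% for ID3, and below the median for BMPR1A, BMPR2, SMAD5 and SMAD7.

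Clones with a late stop codon (KO3 and KO4, with stops beyond residue 1500) were also compared with those with an early one (KO1 and KO2), a contrast that did not enter the choice of BMP4. BMP4 averaged 2.85 in late-stop and 3.17 in early-stop clones, which gives -0.32 ± 0.36 (SE, limma, adjusted p = 0.990). ID2 averaged 3.80 in late-stop and 2.67 in early-stop clones (1.13 ± 1.35 SE, limma, adjusted p = 0.990), and ID1 5.10 and 5.70 (-0.60 ± 0.76 SE, limma, adjusted p = 0.990). None of the 10 members passed, none had an unadjusted p under 0.05, and 0% of all tested genes passed (limma). The means join unlike clones. With KO1 or KO2 left out, the early-stop side is a single clone, whose spread is assumed to be that of the other groups. On that footing, without KO1 the difference of ID3 was -1.35 (adjusted p = 0.0399) and without KO2 it was 1.42 (adjusted p = 0.0353), and SMAD6 was at 1.84 without KO2 (adjusted p = 0.0188).

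Genes that set how much ligand reaches the receptor were examined next. TWSG1, a secreted protein that binds BMPs together with chordin, was lower in every clone. TWSG1 was at a log2 RPKM of 1.55, 2.74, 2.68 and 1.85 in KO1 to KO4, against 3.89, 3.96 and 3.82 in WT1 to WT3. The groups did not overlap, and the difference of -1.69 ± 0.30 (SE) did not pass (limma, adjusted p = 0.0747) but did without KO2 (-1.87, adjusted p = 0.0321) and with quantile normalization (-1.66, adjusted p = 0.0467); without any 1 WT sample its adjusted p was 0.306 to 0.402. Each clone passed singly, with differences of -2.34, -1.15, -1.21 and -2.05 (limma, adjusted p = 1.56e-05, 0.00117, 0.000742 and 0.000124), as 2.3% of all tested genes did in this direction. The neighbours of TWSG1 were at 0.13, -0.34, -0.23 and -0.33.

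FSTL3, a follistatin-like protein that binds activins and some BMPs, was higher in every clone. FSTL3 was at a log2 RPKM of 4.18, 1.94, 2.72 and 3.05 in KO1 to KO4, against 1.40, 1.41 and 1.19 in WT1 to WT3. The difference of 1.64 ± 0.46 (SE) did not pass (limma, adjusted p = 0.169). It did pass without KO2 (1.98, limma, adjusted p = 0.0494), and had an adjusted p of 0.138 to 0.549 without any other library. Each clone passed singly (limma, adjusted p = 1.63e-05, 0.0186, 0.00101 and 0.000504), as 1.13% of all tested genes did in this direction. BAMBI, a decoy receptor and BMP target, was at -0.19, 3.17, 2.12 and 2.20 in KO1 to KO4 and 2.27, 2.25 and 2.25 in WT1 to WT3, so it too was lowest in KO1 and highest in KO2 (-0.43 ± 0.69 SE, limma, adjusted p = 0.794). Of the 17 antagonists and modulators listed 6 were in the table; noggin, chordin and the gremlins were not. FSTL1 was in it but not tested, at 1.25 in KO1 and -2.84 to -1.42 in the other clones, against -2.68 to -2.40 in WT.

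Among the proteases that cut BMP precursors or their inhibitors, 4 of 7 were tested and none passed. FURIN, which cleaves the BMP4 precursor, was at 4.23, 3.75, 3.13 and 4.73 in KO1 to KO4 and 3.34, 3.31 and 3.78 in WT1 to WT3 (0.48 ± 0.36 SE, limma, adjusted p = 0.530). BMP1, a proteinase that cleaves chordin and is no BMP ligand, was at 3.72, 3.31, 2.63 and 3.53 in KO1 to KO4 and 2.93, 2.81 and 2.82 in WT1 to WT3 (0.44 ± 0.25 SE, limma, adjusted p = 0.419). In both, KO3 was the lowest clone. PCSK7 lay below WT in all clones (-0.50 ± 0.19 SE, limma, adjusted p = 0.279); it lies on chromosome 11, where its neighbours were at -0.64, -0.55, -0.59 and -0.71, and with these subtracted it was at 0.12.

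The 14 tested SMADs and SMAD regulators outside the members had a median log2 fold change of 0.05, against -0.02 over all tested genes, and none passed. SMURF1, a ubiquitin ligase that targets SMAD1 and SMAD5, was at 3.54, 4.27, 4.38 and 4.08 in KO1 to KO4, against 4.62, 4.48 and 4.67 in WT1 to WT3. All clones were below WT (-0.52 ± 0.20 SE, limma, adjusted p = 0.281), and its neighbours on chromosome 7 were at -0.70, -0.22, -0.29 and -0.33, beside -1.05, -0.31, -0.21 and -0.51 for SMURF1. SKIL, a repressor of SMAD signalling, was at 0.58 ± 0.31 (SE, limma, adjusted p = 0.401), and RNF111, a ubiquitin ligase that removes inhibitory SMAD7, at 0.25 ± 0.14 (SE, limma, adjusted p = 0.434). SMAD4, the shared partner, was at 1.96, 1.67, 1.64 and 1.53 in KO1 to KO4 and 1.83, 1.85 and 1.75 in WT1 to WT3 (-0.11 ± 0.14 SE, limma, adjusted p = 0.735).

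Other target genes went in both directions. Of 18 listed, 9 were tested and none passed over all genes; their median log2 fold change was -0.02, the same as over all tested genes. SNAI2, which encodes the transcription factor Slug, was at 4.46, 3.00, 2.82 and 3.52 in KO1 to KO4, against 1.77, 1.36 and 1.09 in WT1 to WT3. All clones were above WT, with a difference of 2.04 ± 0.39 (SE, limma, adjusted p = 0.0827). Each clone passed singly (limma, adjusted p = 0.000173, 0.00517, 0.00729 and 0.00205), as 1.13% of all tested genes did in this direction. TBX2, a T-box repressor, was lower, at -1.94, 0.01, 1.08 and -0.05 in KO1 to KO4 against 1.72, 1.39 and 1.17 in WT1 to WT3 (-1.65 ± 0.64 SE, limma, adjusted p = 0.278). HEY1, a Notch and BMP target, was at 0.07, 0.15, 0.94 and 1.40 in the clones against 1.71, 2.23 and 2.74 in WT (-1.59 ± 0.39 SE, limma, adjusted p = 0.138), with an SD of 0.51 among the WT samples themselves. The neighbours of HEY1 were at -0.26, -0.45, -0.52 and -0.50 in KO1 to KO4.

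Of the E proteins that the ID proteins bind, TCF3 and TCF12 were tested and neither passed as a group. TCF4 was in the table but not tested. TCF3 was at 4.69, 3.35, 4.60 and 4.03 in KO1 to KO4 and 4.07, 3.88 and 3.89 in WT1 to WT3, so that KO2 was the lowest clone and KO1 the highest (0.22 ± 0.31 SE, limma, adjusted p = 0.757). The neighbours of TCF3 moved the same way, at 0.37, -0.39, 0.26 and -0.0031 in KO1 to KO4, beside 0.74, -0.60, 0.66 and 0.09 for TCF3. Singly, TCF3 passed as higher in KO1 and KO3 and as lower in KO2 (limma), so its group difference joins opposite differences. TCF12 was at 0.10 ± 0.13 (SE, limma, adjusted p = 0.739).

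None of the 9 tested targets of the neighbouring TGF-beta branch passed. PMEPA1, which encodes a feedback inhibitor of TGF-beta signalling, was at 3.72, -1.04, 0.41 and 3.15 in KO1 to KO4, against -0.93, -1.08 and -1.12 in WT1 to WT3. KO2 was within the WT range and the other clones were above it (2.61 ± 1.10 SE, limma, adjusted p = 0.313). CTGF, a matricellular protein, was at 5.47, 5.54, 4.70 and 6.08 in KO1 to KO4 and 6.13, 6.05 and 6.04 in WT1 to WT3 (-0.63 ± 0.29 SE, limma, adjusted p = 0.341). Of the 9 tested genes in this list 6 were higher on average in KO, against 47% of all tested genes, and the median log2 fold change was 0.16, against -0.02 over all tested genes. Over all these lists, 45 genes that are not members were tested, 0 passed and 9 had an unadjusted p under 0.05 (limma), which is near the 15.7% of all tested genes that did. In 8 of them the groups did not overlap, 2 higher and 6 lower in KO, which is near the 19% of all tested genes.

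**Figure D4:**
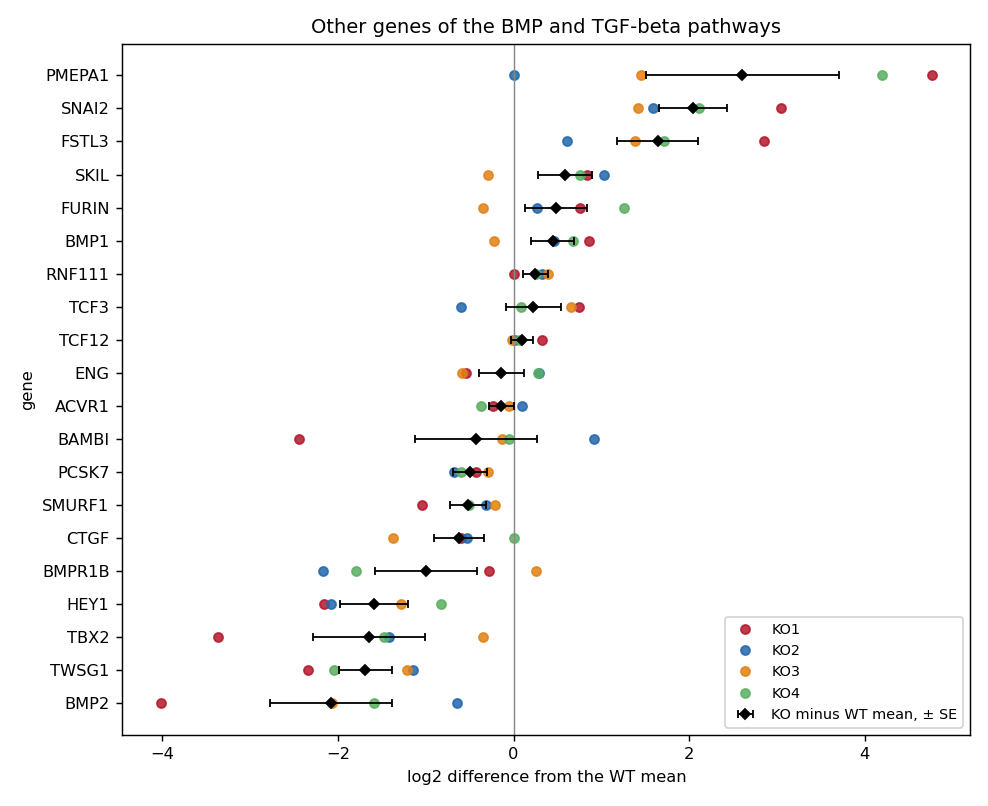
Log2 difference from the WT mean for 20 further pathway genes named by rule: coloured points are the 4 clones and black diamonds the KO minus WT difference with its SE. SNAI2, FSTL3, PMEPA1 and RNF111 are above 0 in every clone, PMEPA1 by only 0.0085 in KO2 and RNF111 by only 0.0015 in KO1. BMP2, TWSG1, TBX2, HEY1, SMURF1 and PCSK7 are below 0 in every clone. None of the diamonds passed the test over all genes.

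Genes with the level pattern most like that of BMP4 were sought over the 7 libraries among all tested genes. TAOK1 came first with a Pearson correlation of 0.989, followed by TMEM203 (0.985), POMT1 (0.984), USP47 (0.984) and SLFN12 (0.983). TAOK1 was at a log2 RPKM of 3.32, 3.23, 2.97 and 3.30 in KO1 to KO4 and 2.77, 2.81 and 2.65 in WT1 to WT3, a much smaller step than that of BMP4. For ID1 the closest were COL17A1 (0.986), CASD1 (0.985), SPRED1 (0.983), RCAN3 (0.983) and CAB39 (0.981). COL17A1, a hemidesmosomal collagen, was at -2.07, 3.61, -2.19 and 0.29 in the clones and 1.39, 1.09 and 1.01 in WT. These genes were picked as the highest of 11154 over 7 libraries, and no test is given.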

How the data were processed

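The authors deposited 1 table of log2 RPKM values (log2 of reads per kilobase of gene, scaled to depth), 1 column per library; the scale is taken from the deposited table's name. The submitters' processing notes name build hg38, edgeR, HTSeq 0.11.2, STAR 2.5.3a and Trim Galore 0.4.1; the annotation, prior count and strand setting are not given in the sources used here. Values ran from -12.81 to 12.45, and low values gave no whole reads, so no count test was run.

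Here, genes above log2 RPKM 0 in at least 3 libraries were fitted with limma 3.58.1 in R 4.3.3 (trend on the mean, Benjamini-Hochberg over all 11154 genes, adjusted p under 0.05), with no pseudocount or further scaling. Contrasts were KO against WT, each clone against WT, and late-stop against early-stop clones. Procedures were run on simulated data. For the single-clone tests the simulated clones had the spread of the WT samples, so false calls from a wider spread among clones could not show there. Genes within 5 Mb came from GENCODE release 29 (95.4% of the table's genes matched), and promoters from RefSeq (10 of 10 members). The members and lists were chosen with earlier results of these data known. Named from each list were genes that passed, otherwise the 3 with the smallest p, and any called one way in all 4 clones; for likeness to BMP4 and ID1, the top 5 by correlation. SMAD4, BMP8B and FSTL1 fall outside that rule and were added after their values were seen, as was the comparison of epithelial markers with the ID genes. The pattern with KO2 highest and KO1 lowest was also read from the values. Alternatives covered filters, scaling, variance trend, pseudocount, position centring and leaving out each library.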

Additional observations from a re-analysis of the deposited data

Results flagged for a closer look

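In 7 members, clones lay on opposite sides of all WT samples. Single clones passed in both directions for ID1, ID2 and ID3 only; no clone passed for BMPR1A or BMPR2. The log2 range from the highest to the lowest clone was 4.53 for ID2, 2.77 for ID3, 2.53 for ID1, 1.11 for SMAD1, 0.70 for SMAD5, 0.61 for BMPR1A and 0.22 for BMPR2. Each clone has 1 library, so the difference between clones was not tested. Such opposite sides were seen in 51.2% of all tested genes. For SMAD1 and SMAD5 the neighbouring genes moved with KO3, at 0.57 and -0.35, and their part in the ranges was not tested. No clone stood apart from the other three beyond Dixon's limit in any of 30 genes examined.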

How the results depend on the processing

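The count of genes past the threshold for KO against WT, 46, depended on the setting: it was 114 with quantile normalization, 75 on log2 of RPKM plus 1, 1 with position centring, and 0 to 236 when 1 library was left out (0 without any 1 WT sample, 1 without KO4, 87 without KO3 and 236 without KO2). With the replicate number as a block, which leaves KO4 out, it was 0; the numbers only name samples, and same-numbered KO and WT samples had correlations of 0.060, 0.066 and -0.012. The BMP4 difference of 1.90 ranged from 1.52 on log2 of RPKM plus 1 to 2.11 without KO3. The count among the other 9 members was 0 in every setting run. In the main setting only 0.412% of all tested genes passed, and in several others 0 or 1 gene did. The member count had little or no room to differ, so its constancy is no support.

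Single-clone counts of members, with 1 library left out, were 4 to 5 in KO1, 2 to 3 in KO2, 1 to 5 in KO3 and 0 to 4 in KO4, both lowest values without WT2; late-stop against early-stop gave 0 to 2, with 1 without KO1 and 2 without KO2. The share of all tested genes that passed in the same left-out fits is not given here, and the shares of the main fits do not apply. Whether the member counts changed with that share was therefore not tested. Without KO1 or KO2 the early-stop side is also a single clone. Some differences changed sign, not all of them near 0. With the replicate block BMPR2 was at -0.0155 and SMAD5 at -0.0933. With position centring SMAD1 was at -0.0462 (0.30 in the main fit), ACVR1 at 0.0363 and PCSK7 at 0.12 (-0.50 in the main fit). With 1 library left out, KO minus WT ran from -0.0188 to 0.0591 for BMPR2, -0.0933 to 0.14 for SMAD5, -1.34 to 0.17 for ID2, -0.28 to 0.0122 for ENG and -0.88 to 0.24 for BAMBI. Late-stop minus early-stop ran from -0.81 to 0.17 for BMP4, -0.18 to 0.0399 for BMPR2, -0.66 to 0.44 for SMAD1, -0.48 to 0.22 for SMAD5, -0.86 to 1.84 for SMAD6, -1.86 to 0.66 for ID1, -1.13 to 3.39 for ID2 and -1.35 to 1.42 for ID3. The left-out fits hold fewer samples, whereas position centring keeps all libraries and subtracts the median of the neighbours. What else lies behind the sign changes was not tested. Clones vary more than WT samples, 1 library stands for each clone, and the depth is unknown.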
